A study of Homo sapiens with 9 samples.

Results

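Expression of the genes that copy DNA methylation and rebuild chromatin behind the replication fork was measured in HEYA8 cells, a human ovarian carcinoma line labelled high-grade serous and wild type. The genes were 10 by name: UHRF1, DNMT1, HELLS, DNMT3A, DNMT3B, CHAF1A, CHAF1B, ASF1A, ASF1B and EZH2. All 10 were found among the 58735 genes of the deposited count table, and all 10 passed the filter on low counts that left 15232 genes for testing. Cells received compound 32, sunitinib (a kinase inhibitor that blocks VEGF, PDGF and KIT receptors) or DMSO, the solvent, in matching volume, for 24 h, with 3 libraries each. The series asks how the compounds change the transcriptome, in a study of sunitinib with the DNA-damaging drug cisplatin. No sample is labelled with cisplatin. The sources used here state no dose, and the labels do not say how compound 32 relates to sunitinib. All samples are of 1 cell line.

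Methylated CpG sites become hemimethylated when DNA is copied. UHRF1 binds those sites and recruits DNMT1, the maintenance methyltransferase, while HELLS, a chromatin remodeller, opens packed DNA to them. DNMT3A and DNMT3B set new methylation. Newly made histones H3 and H4 are carried by the chaperones ASF1A and ASF1B and placed on new DNA by chromatin assembly factor 1 (CAF-1), whose subunits are CHAF1A, CHAF1B and RBBP4. EZH2 is the catalytic subunit of Polycomb repressive complex 2 (PRC2), which methylates histone H3 at silent genes. Several of these genes are known to be transcribed mainly in cycling cells under E2F factors. The libraries measure mRNA, not DNA methylation or histone deposition.

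The promoters shown are those of the 4 genes with the largest change under sunitinib among those that held an E2F-type motif. All 4 genes fell. Motif and change both entered this choice, so a link between them was not tested. Each spans 300 bases, the last 50 of them transcribed, around a RefSeq transcription start (build GRCh38.p14), 5′ to 3′ on the gene's strand. Capitals mark the E2F-type motif TTCCCGC, its close variant TTCGCGC, the further variant TTGCCGC or the further variant TTGGCGC, each on either strand. UHRF1 has other listed promoters, and the one with the most matches is shown.
UHRF1 (chr19:4909251-4909550, plus strand): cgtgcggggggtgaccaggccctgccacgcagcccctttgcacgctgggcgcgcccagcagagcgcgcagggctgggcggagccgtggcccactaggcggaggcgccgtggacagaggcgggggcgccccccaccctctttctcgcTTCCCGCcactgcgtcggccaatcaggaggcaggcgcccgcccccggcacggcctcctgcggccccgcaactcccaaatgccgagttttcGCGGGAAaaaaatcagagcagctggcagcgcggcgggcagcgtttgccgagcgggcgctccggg
HELLS (chr10:94545538-94545837, plus strand): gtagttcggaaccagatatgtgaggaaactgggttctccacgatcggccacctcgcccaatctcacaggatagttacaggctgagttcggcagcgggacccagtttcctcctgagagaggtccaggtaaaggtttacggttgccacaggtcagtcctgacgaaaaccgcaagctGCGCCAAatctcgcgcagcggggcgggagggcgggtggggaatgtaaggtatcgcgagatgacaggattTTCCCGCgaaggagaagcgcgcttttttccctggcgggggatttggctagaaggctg
CHAF1A (chr19:4402390-4402689, plus strand): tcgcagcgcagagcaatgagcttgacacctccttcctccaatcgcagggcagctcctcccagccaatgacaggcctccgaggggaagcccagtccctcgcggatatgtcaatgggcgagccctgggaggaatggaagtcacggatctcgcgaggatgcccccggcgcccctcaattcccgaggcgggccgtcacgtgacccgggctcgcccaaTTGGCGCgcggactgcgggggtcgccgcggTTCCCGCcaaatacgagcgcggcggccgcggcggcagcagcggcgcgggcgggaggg
CHAF1B (chr21:36385142-36385441, plus strand): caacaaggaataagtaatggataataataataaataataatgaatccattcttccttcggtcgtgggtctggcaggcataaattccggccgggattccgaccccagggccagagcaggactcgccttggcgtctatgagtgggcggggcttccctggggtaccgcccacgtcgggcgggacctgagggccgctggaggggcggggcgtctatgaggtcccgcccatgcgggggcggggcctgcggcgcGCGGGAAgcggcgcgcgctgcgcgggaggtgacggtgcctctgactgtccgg
With the start as base 1 and no base 0, the motifs lay at -104 to -98 and -14 to -8 in UHRF1, at -76 to -70 and -7 to -1 in HELLS, at -37 to -31 and -7 to -1 in CHAF1A, and at -2 to 5 in CHAF1B. DNMT1 and EZH2 each held a match too, at -2 to 5 and at 3 to 9, so 6 of the 10 genes had one in at least 1 listed promoter. For comparison, 25% of the 10370 tested genes matched by symbol to a promoter held such a motif, and 13% of all 35116 promoters did. DNMT3A, DNMT3B, ASF1A and ASF1B had none in these windows. Of these, ASF1B also fell under sunitinib (log2 fold change -1.35). The cell cycle gene homology element TTTGAA was found for 2 genes (13.8% of tested genes), CCAAT for 7 (43%) and ACGTG, the core of the hypoxia response element, for 3 (32.5%), on either strand. In CHAF1A the CCAAT matches at -41 to -37 and, on the other strand, at -38 to -34 overlap the upstream E2F-type match. A match is a description of letters, and binding was not measured.

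Library totals were 15.7 to 17.0 M counts with compound 32, 15.5 to 18.01 M with sunitinib and 15.6 to 16.9 M with DMSO. Levels are in CPM, the count divided by the library total in M after TMM scaling. Sunitinib replicate 3 stood apart, where ribosomal protein genes took 7.57% and mitochondrial genes 5.36% of the counts, against 4.14 to 4.99% and 3.42 to 3.92% in the other 8 libraries. It stays in all values. For the methylation and chromatin assembly genes listed at the start, and for ratios between related genes, results that change without it are named. The other gene lists, partners and markers are given only with this library, and so are the percentages of all tested genes called. Those percentages depend on it. Without this library 8004 genes were called under sunitinib against DMSO, and with it 6126. For compound 32 against DMSO 3401 were called with it, and the number rose by a larger share without it, as given at the end. The backgrounds of 12% and 10.3% for compound 32 against DMSO therefore hold only with this library. Of the ovarian and epithelial markers, PAX8 averaged 117, 123 and 132 CPM and KRT8 862, 633 and 694 CPM with compound 32, sunitinib and DMSO, and KRT18 440.2, 346 and 359 CPM. Both keratins rose with compound 32 against DMSO (edgeR adjusted p = 0.00493 and 0.032). KRT7 averaged 66.1, 223 and 72.1 CPM and rose under sunitinib by 1.63 ± 0.07 (adjusted p = 5.61e-08), while EPCAM averaged 1.11, 2.13 and 1.32 CPM, CDH1 at most 0.0609 CPM and MUC16 at most 0.108 CPM. WT1 fell under sunitinib (5.11 CPM, against 12.4 CPM with DMSO, adjusted p = 1.9e-05). KRT19 averaged 0.520, 0.694 and 0.820 CPM and MSLN 0.887, 0.558 and 0.736 CPM with compound 32, sunitinib and DMSO. The leukocyte marker PTPRC and the fibroblast marker DCN had no count with compound 32 or DMSO and averaged 0.0216 CPM each with sunitinib. Of 11 markers of other cell types 5 passed the count filter. The mesenchymal marker VIM was the highest of them, at 3345, 3773 and 3626 CPM with compound 32, sunitinib and DMSO. That is above PAX8, KRT8 and KRT18. The endothelial marker CDH5 averaged 4.09 CPM with compound 32, 13.8 CPM with sunitinib and 7.36 CPM with DMSO and was called in each comparison, COL1A1 rose with compound 32 (2.90 CPM, against 1.53 CPM with DMSO), and their part in the results was not tested.

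Under sunitinib, 7 of the 10 genes fell against DMSO and none rose, where 19.9% of all tested genes were called lower and 20.3% higher (edgeR quasi-likelihood test, adjusted p under 0.05). Either way 40.2% of tested genes were called, 3090 higher and 3036 lower. With upper-quartile scaling in place of TMM the split was 3952 higher and 2316 lower, and the same 7 of the 10 genes were called lower. At 2-fold or more 6 fell and none rose, against backgrounds of 2.23% and 5.67%. The 3 sunitinib libraries all lay below the 3 of DMSO for 7 genes and all above for none, where 25.1% and 25.7% of tested genes did so. Under compound 32, 5 rose and 1 fell against DMSO, with backgrounds of 12% and 10.3% (22.3% either way), and none passed 2-fold (2.01% and 1.14%). The compound 32 libraries all lay above those of DMSO for 5 genes (24.7%) and all below for 3 (24.4%), the last being DNMT1, DNMT3A and ASF1A. Compound 32 against sunitinib gave 7 higher and 1 lower, with backgrounds of 24.1% and 25.2% (49.2% either way). Of the 7, 6 were at least 2-fold higher and no gene was 2-fold lower (5.38% and 8.08%), and the same 8 called genes did not overlap, 7 higher (27.9%) and 1 lower (29%). The median log2 fold change of the 10 was -1.20, 0.21 and 1.66 in these comparisons, against 0.02, -0.000266 and -0.03 over all tested genes. Both comparisons with DMSO use the same 3 DMSO libraries.

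**Figure D1:**
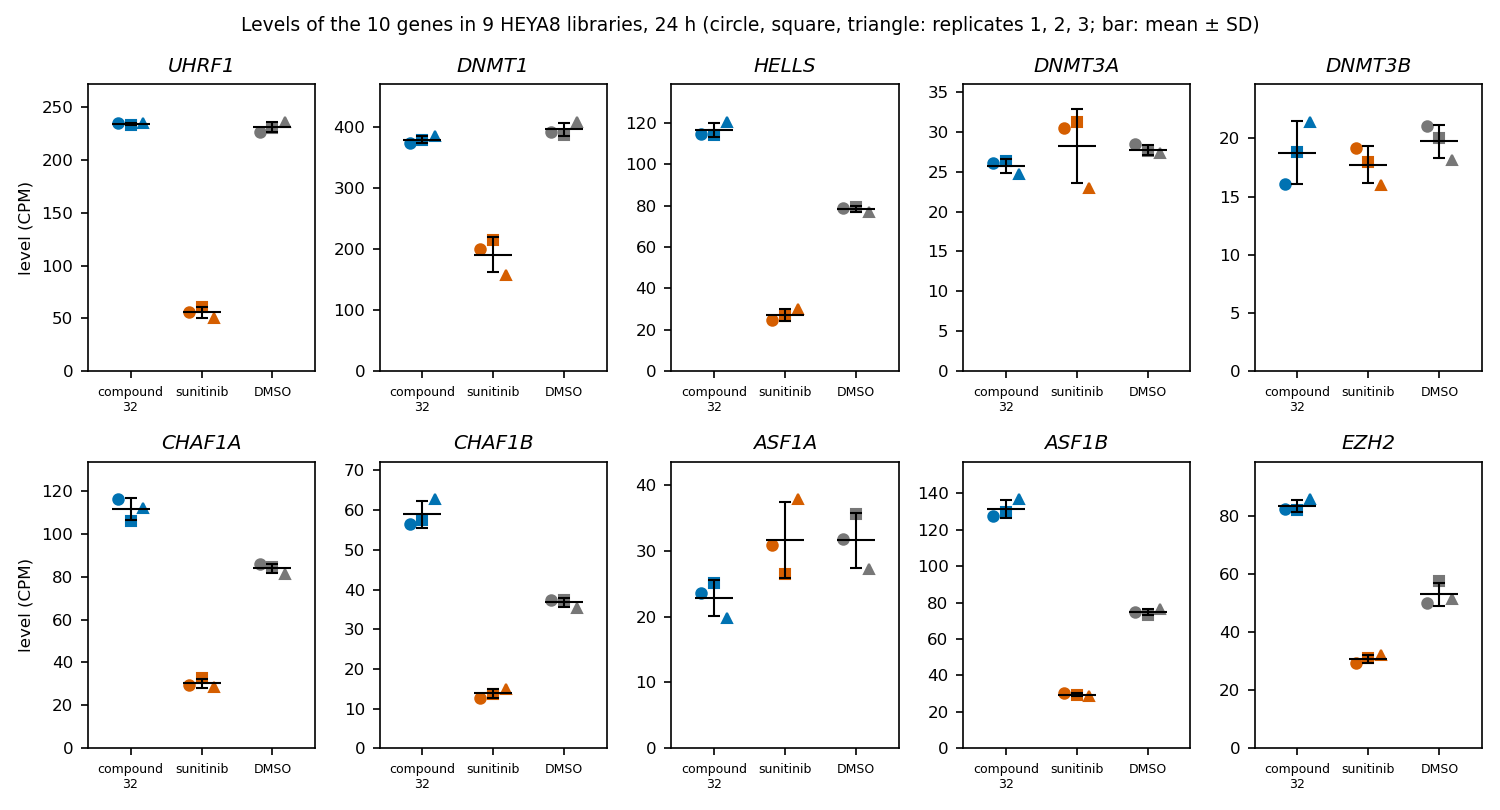
Level in CPM (vertical axis, from 0) of each of the 10 genes in every library, by treatment, with points for libraries and bars for the mean ± SD of 3. For UHRF1, HELLS, CHAF1A, CHAF1B, ASF1B, EZH2 and DNMT1 all sunitinib libraries lie below all DMSO libraries, while for DNMT3A, DNMT3B and ASF1A sunitinib and DMSO overlap.

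UHRF1, the reader of hemimethylated DNA (ENSG00000276043, chromosome 19 from 4903080 to 4962154, GRCh38), had the largest fall. It stood at 235.0, 233.4 and 235.0 CPM with compound 32, at 56.2, 61.0 and 50.3 CPM with sunitinib and at 227.0, 230.4 and 236.2 CPM with DMSO. The sunitinib libraries formed a low group of their own, and the compound 32 values lay within the DMSO range. The log2 fold change was -2.05 ± 0.07 (SE) for sunitinib against DMSO, 4.14-fold lower (edgeR adjusted p = 1.55e-08). For compound 32 against DMSO it was 0.02 ± 0.07, with a 95% interval of -0.13 to 0.17 (adjusted p = 0.876), and against sunitinib 2.07 ± 0.07 (adjusted p = 3.62e-09).

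DNMT1, the maintenance methyltransferase (ENSG00000130816, chromosome 19 from 10133345 to 10231286), was the most counted of the genes, with 2433 to 6453 reads a library. Its levels were 373.9, 377.3 and 385.1 CPM with compound 32, 199.4, 214.6 and 157.9 CPM with sunitinib, and 391.7, 386.4 and 407.7 CPM with DMSO. Sunitinib replicate 3 gave the lowest value. DNMT1 fell under sunitinib by 1.05 ± 0.10 on the log2 scale (edgeR adjusted p = 9.5e-06), a smaller change than that of UHRF1. Compound 32 did not pass the test against DMSO (-0.06 ± 0.10, interval -0.27 to 0.15, adjusted p = 0.705), although its 3 libraries all lay just under the 3 of DMSO. Against sunitinib it was 0.99 ± 0.10 higher (adjusted p = 8.48e-06).

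HELLS, the remodeller that assists both (ENSG00000119969, chromosome 10 from 94501434 to 94613905), separated all 3 treatments. It measured 114.8, 114.5 and 120.6 CPM with compound 32, 24.6, 26.7 and 30.1 CPM with sunitinib, and 78.8, 79.5 and 76.9 CPM with DMSO. No 2 treatments overlapped. The log2 fold change was -1.53 ± 0.08 for sunitinib against DMSO (edgeR adjusted p = 1.28e-07), 0.57 ± 0.07 for compound 32 against DMSO (adjusted p = 0.000282) and 2.10 ± 0.08 for compound 32 against sunitinib (adjusted p = 4.8e-09).

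The de novo methyltransferases were not called in any of the 3 comparisons. DNMT3A (ENSG00000119772, chromosome 2 from 25227855 to 25342590) had 26.1, 26.3 and 24.7 CPM with compound 32, 30.5, 31.3 and 22.9 CPM with sunitinib, and 28.4, 27.5 and 27.3 CPM with DMSO. The low sunitinib value is that of replicate 3, and the compound 32 libraries lay just under those of DMSO. Its log2 fold change was 0.03 (95% interval -0.21 to 0.27) for sunitinib and -0.11 (-0.35 to 0.13) for compound 32 against DMSO. Compound 32 against sunitinib was -0.14 ± 0.11 (edgeR adjusted p = 0.316), and without sunitinib replicate 3 it was called at -0.26 (adjusted p = 0.00414). DNMT3B (ENSG00000088305, chromosome 20 from 32762385 to 32809356) ranged over 16.1 to 21.4 CPM with compound 32, 16.0 to 19.2 CPM with sunitinib and 18.2 to 21.1 CPM with DMSO. All 3 treatments overlapped. The intervals were -0.41 to 0.11 for sunitinib and -0.33 to 0.19 for compound 32 against DMSO, so changes of the size seen in UHRF1 or HELLS under sunitinib lie outside them. DNMT3L, their cofactor without catalytic activity, averaged 0 CPM with both compounds and 0.0200 CPM with DMSO and was not tested.

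Both large subunits of CAF-1 fell under sunitinib and rose under compound 32. CHAF1A (ENSG00000167670, chromosome 19 from 4402662 to 4445018) had 116.1, 105.9 and 112.1 CPM with compound 32, 29.5, 32.8 and 28.8 CPM with sunitinib, and 85.7, 84.6 and 81.5 CPM with DMSO. CHAF1B (ENSG00000159259, chromosome 21 from 36385378 to 36419015) had 56.4, 57.6 and 62.8 CPM with compound 32, 12.8, 13.8 and 14.99 CPM with sunitinib, and 37.4, 37.4 and 35.4 CPM with DMSO. In both genes the compound 32 libraries were the highest and the sunitinib libraries the lowest, with no overlap. Under sunitinib CHAF1A changed by -1.47 ± 0.07 and CHAF1B by -1.41 ± 0.08 (edgeR adjusted p = 9.58e-08 and 4.04e-07). Under compound 32 they rose by 0.41 ± 0.07 and 0.68 ± 0.08 against DMSO (adjusted p = 0.00164 and 0.000123), and compound 32 exceeded sunitinib by 1.88 ± 0.07 and 2.09 ± 0.08 (adjusted p = 6.53e-09 and 9.34e-09). RBBP4, the histone-binding subunit that CAF-1 shares with PRC2, averaged 155 CPM with compound 32, 100.3 CPM with sunitinib and 140 CPM with DMSO. It fell under sunitinib by 0.48 ± 0.07 (adjusted p = 0.000192) and was not called under compound 32 (0.15 ± 0.07, adjusted p = 0.128).

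The paralogous chaperones ASF1A and ASF1B differed. ASF1B (ENSG00000105011, chromosome 19 from 14119509 to 14136956) had 127.6, 129.9 and 136.8 CPM with compound 32, 30.2, 29.3 and 28.6 CPM with sunitinib, and 75.0, 73.1 and 76.2 CPM with DMSO. It fell by 1.35 ± 0.06 under sunitinib (edgeR adjusted p = 7.5e-08) and rose by 0.81 ± 0.06 under compound 32 (adjusted p = 4.4e-06). Compound 32 stood 2.16 ± 0.06 above sunitinib, 4.47-fold (adjusted p = 8.22e-10). ASF1A (ENSG00000111875, chromosome 6 from 118894220 to 118909167) had 23.6, 25.1 and 19.8 CPM with compound 32, 30.8, 26.4 and 37.8 CPM with sunitinib, and 31.8, 35.6 and 27.2 CPM with DMSO. Sunitinib and DMSO overlapped (0.00 ± 0.14, interval -0.30 to 0.31, adjusted p = 0.983), and the compound 32 libraries lay under both. ASF1A fell by 0.47 ± 0.14 with compound 32 against DMSO (adjusted p = 0.0372). That call was lost without DMSO replicate 1 or 2 or any compound 32 replicate, at adjusted p of 0.0549 to 0.15. Against sunitinib ASF1A was 0.47 ± 0.14 lower (adjusted p = 0.017), and not called without compound 32 replicate 3 (-0.37, adjusted p = 0.084).

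EZH2 (ENSG00000106462, chromosome 7 from 148807383 to 148884321) had 82.7, 82.0 and 85.9 CPM with compound 32, 29.5, 31.0 and 32.2 CPM with sunitinib, and 50.2, 57.7 and 51.6 CPM with DMSO. No 2 treatments overlapped. It fell by 0.78 ± 0.07 under sunitinib (edgeR adjusted p = 1.18e-05) and rose by 0.65 ± 0.07 under compound 32 (adjusted p = 9.01e-05). Of the 7 genes that fell under sunitinib it fell least. Compound 32 exceeded sunitinib by 1.43 ± 0.07 (adjusted p = 5.97e-08).

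**Figure D2:**
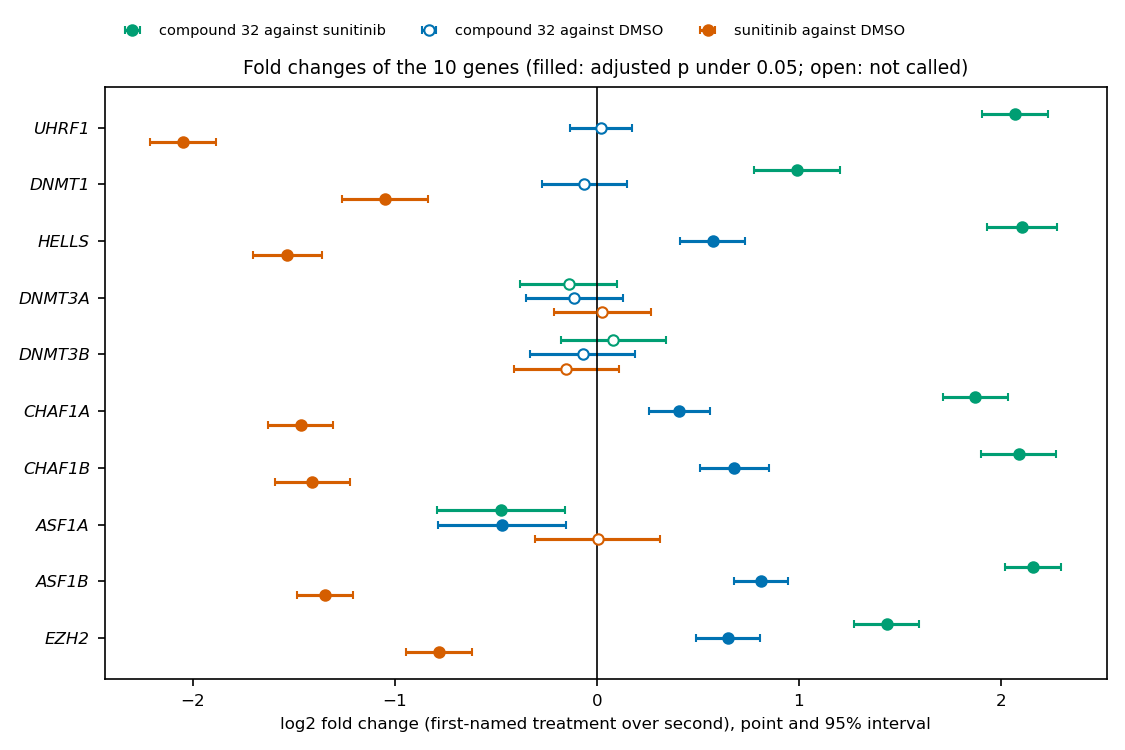
Log2 fold change (horizontal axis) of each gene with its 95% interval in 3 comparisons, filled where edgeR's adjusted p was under 0.05. Sunitinib against DMSO runs down to -2.05 for UHRF1, and compound 32 against DMSO reaches 0.81 for ASF1B, with UHRF1 and DNMT1 open near 0.

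ASF1B, CHAF1B, EZH2, HELLS and CHAF1A were lower under sunitinib and higher under compound 32, while UHRF1 and DNMT1 were called under sunitinib and not under compound 32. Both UHRF1 and DNMT1 differed between the compounds in the direct comparison of compound 32 with sunitinib. Without sunitinib replicate 3 the 7 falls lay between -1.98 (UHRF1) and -0.82 (EZH2), and the 5 rises under compound 32 between 0.41 (CHAF1A) and 0.82 (ASF1B), all called.

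The order of the genes changed with treatment when levels were set per kilobase of the gene length given in the deposited table. With compound 32 the order was led by ASF1B (57.0 ± 2.09 CPM per kilobase, SD, n = 3), UHRF1 (45.6 ± 0.177) and DNMT1 (38.7 ± 0.587). With sunitinib it was led by DNMT1 (19.5 ± 3.00), followed by ASF1B (12.7 ± 0.337), ASF1A (12.6 ± 2.29) and UHRF1 (10.9 ± 1.04), of which neighbours overlapped from ASF1B to UHRF1. With DMSO it was UHRF1 (44.9 ± 0.905), DNMT1 (40.3 ± 1.13) and ASF1B (32.4 ± 0.698), with no overlap between neighbours. Per kilobase DNMT3A, with the longest length of these genes (12020 bases), was the lowest in every treatment. It stood at 2.14 ± 0.0720, 2.35 ± 0.385 and 2.31 ± 0.0499 CPM per kilobase. With sunitinib the neighbours CHAF1A and EZH2, and those from CHAF1B through HELLS to DNMT3A, also overlapped. With compound 32 CHAF1B and HELLS did, and with DMSO ASF1A and EZH2. The order depends on the division by length. In CPM, DNMT3B averaged 18.8, 17.7 and 19.7 with compound 32, sunitinib and DMSO, below DNMT3A at 25.7, 28.2 and 27.8. With sunitinib CHAF1B was the lowest in CPM, at 13.9.

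Ratios within a library, which do not depend on scaling, were used to test whether related genes responded differently (exact permutation test over the 3 treatments, 1680 assignments, p adjusted over 5 ratios). The log2 ratio of ASF1B to ASF1A was 2.43, 2.37 and 2.79 with compound 32, -0.03, 0.15 and -0.40 with sunitinib, and 1.24, 1.04 and 1.48 with DMSO. The 3 treatments did not overlap (exact permutation p = 0.00357, the smallest this design can give, adjusted p = 0.00893). The ratio of EZH2 to EZH1, the other catalytic subunit of PRC2, averaged 1.22 ± 0.07 with compound 32, -0.85 ± 0.12 with sunitinib and 0.45 ± 0.21 with DMSO (SD, n = 3, exact permutation adjusted p = 0.00893). EZH1 itself rose by 0.52 ± 0.08 under sunitinib (edgeR adjusted p = 0.000413) and was -0.12 ± 0.08 with compound 32 (adjusted p = 0.356).

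UHRF1 to UHRF2, its paralog, averaged 1.53 ± 0.04 with compound 32, -0.10 ± 0.21 with sunitinib and 1.55 ± 0.03 with DMSO (exact permutation adjusted p = 0.0357). The adjusted p was 0.0595 without DMSO replicate 2 and 0.0536 without compound 32 replicate 1. UHRF2 fell by 0.41 ± 0.06 under sunitinib (edgeR adjusted p = 0.000498), less than UHRF1. The subunit ratio CHAF1B to CHAF1A averaged -0.92 ± 0.11, -1.13 ± 0.17 and -1.19 ± 0.01 with compound 32, sunitinib and DMSO (exact permutation adjusted p = 0.0893), and was called without sunitinib replicate 3 (adjusted p = 0.0402). For DNMT3B to DNMT3A the averages were -0.46 ± 0.25, -0.66 ± 0.14 and -0.49 ± 0.08 (exact permutation adjusted p = 0.379).

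**Figure D3:**
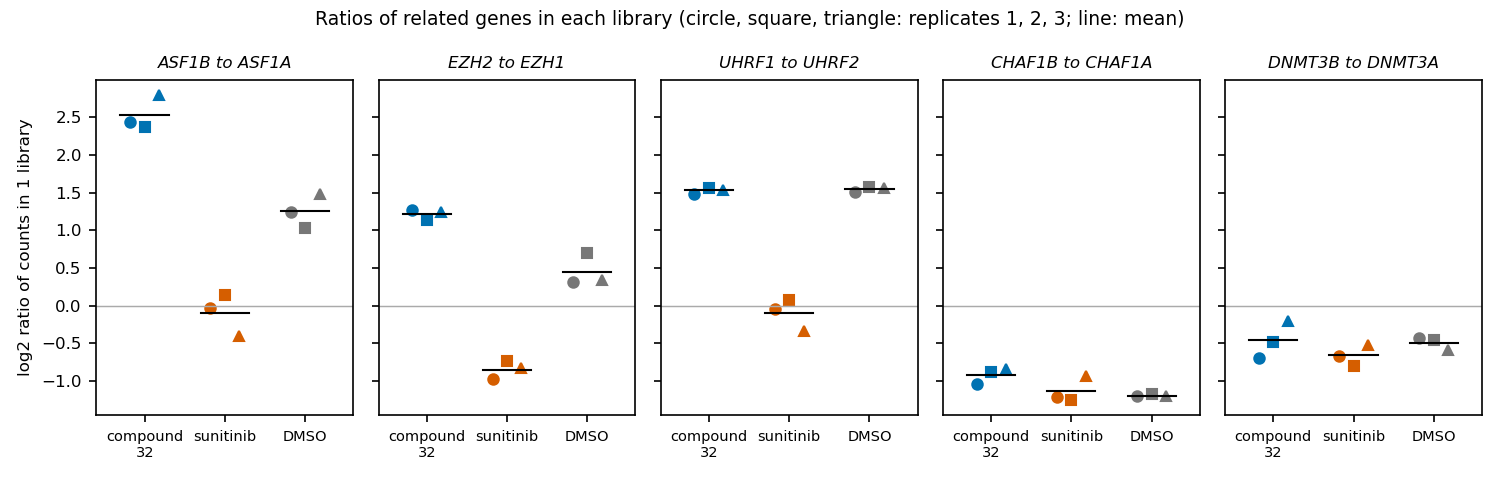
Log2 ratio of the counts of 2 related genes (vertical axis) in each library, by treatment, with lines at the mean of 3. The ratios of ASF1B to ASF1A and EZH2 to EZH1 fall into 3 separate levels, highest with compound 32 and lowest with sunitinib, while that of UHRF1 to UHRF2 is low with sunitinib and near 1.5 in the other treatments.

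Other genes of DNA methylation were taken as a list of 30 partners, readers and erasers, of which 29 were tested. Under sunitinib 14 fell and none rose, with a median of -0.31, where 19.9% of all tested genes were called lower and 20.3% higher. PCNA, the sliding clamp that DNMT1 binds, averaged 49.5 CPM with sunitinib and 136 CPM with DMSO (-1.46 ± 0.12, edgeR adjusted p = 3.24e-06). LIG1, the ligase of lagging strand synthesis whose methylated form UHRF1 binds, changed by -0.89 ± 0.08, and CDCA7, the activator of HELLS, by -0.94 ± 0.08. Under compound 32 4 rose and 3 fell, median -0.02, near the 12% and 10.3% of all tested genes, with LIG1 at 0.54 ± 0.07, PCNA at 0.77 ± 0.11 and ZBTB24, a factor that controls CDCA7, at -0.49 ± 0.10. CDCA7 was not called there (-0.05 ± 0.08, adjusted p = 0.698). Compound 32 against sunitinib gave 15 higher and 3 lower (24.1% and 25.2% over all tested genes). PCNA stood at 2.24 ± 0.12, LIG1 at 1.43 ± 0.08 and CDCA7L, a paralog of CDCA7, at 0.93 ± 0.07.

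The other 13 genes around PRC2 were all tested. Under sunitinib 8 fell and 2 rose, with a median of -0.42 (19.9% and 20.3% over all tested genes). The core subunit SUZ12 changed by -0.62 ± 0.06 and the accessory subunit PHF19 by -0.62 ± 0.07 (edgeR adjusted p = 1.46e-05 and 4.51e-05). Under compound 32 2 rose and 1 fell, median 0.15, near the 12% and 10.3% of all tested genes. PHF19 fell by 0.41 ± 0.07, the demethylase gene KDM6B rose by 0.67 ± 0.16 and PHF1 by 0.35 ± 0.09. Compound 32 against sunitinib gave 9 higher and 2 lower (24.1% and 25.2% over all tested genes). Among the higher genes were EPOP at 0.76 ± 0.09, RBBP4 at 0.63 ± 0.07 and SUZ12 at 0.62 ± 0.06. RBBP7, a paralog of RBBP4, fell by 0.42 ± 0.09 under sunitinib (adjusted p = 0.00418) and was not called under compound 32.

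Among 28 histone chaperones and their partners 17 fell and none rose under sunitinib, median -0.40 (19.9% and 20.3% over all tested genes). MMS22L, the partner of TONSL at damaged forks, and MCM2, a helicase subunit that binds H3 and H4, changed by -1.27 ± 0.07 and -1.54 ± 0.10 (edgeR adjusted p = 1.49e-07 and 8.33e-07), and HJURP, the chaperone of the centromeric histone, by -0.78 ± 0.07. Under compound 32 3 rose and 3 fell, median -0.06, near the 12% and 10.3% of all tested genes. MMS22L rose by 0.56 ± 0.06, while HJURP fell by 0.47 ± 0.06 and ANP32E by 0.36 ± 0.08. Compound 32 against sunitinib gave 14 higher and 1 lower (24.1% and 25.2% over all tested genes). MCM2 stood at 1.91 ± 0.10, MMS22L at 1.83 ± 0.07 and DNAJC9 at 0.84 ± 0.08. 

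**Figure D4:**
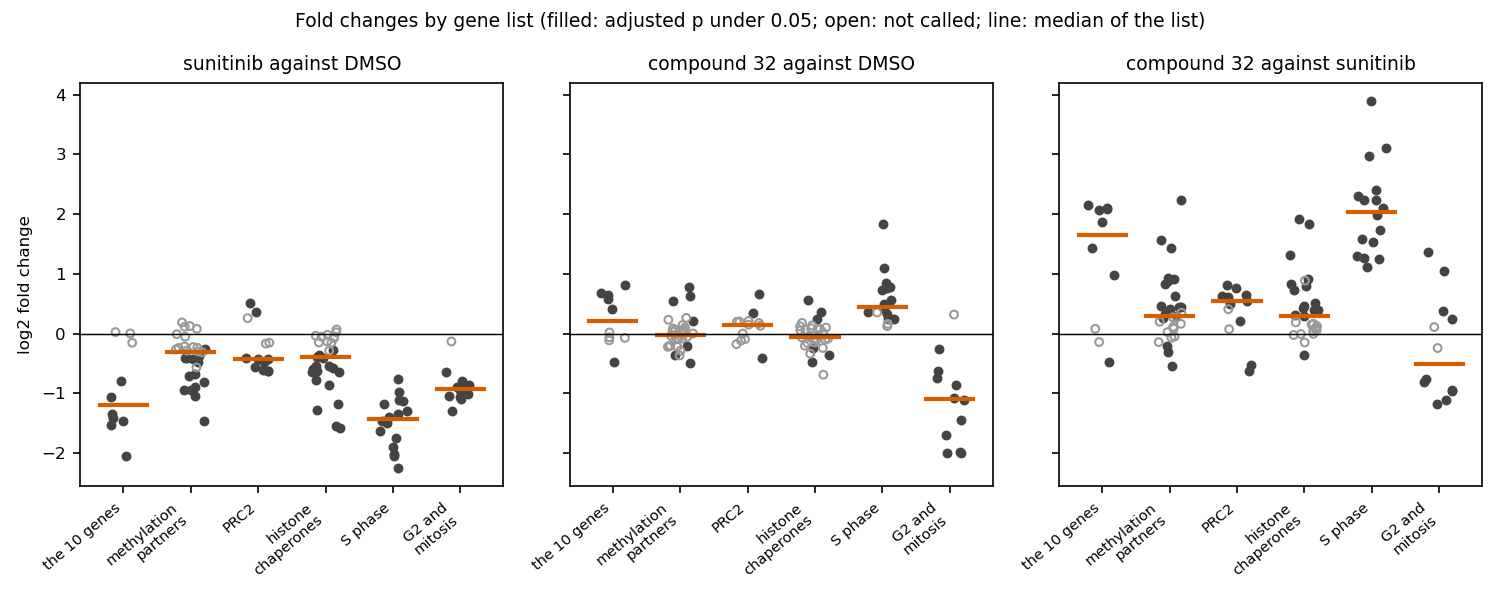
Log2 fold change (vertical axis) of each tested gene by list in 3 comparisons, filled where called, with the median of each list as a line. The medians of the 10 genes and of the S phase list are -1.20 and -1.43 under sunitinib and 0.21 and 0.45 under compound 32, against DMSO.

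Markers of cell cycle phase changed under both compounds. All 16 S phase genes fell under sunitinib (median -1.43), and under compound 32 13 rose and none fell (median 0.45), with the same backgrounds of 19.9% lower under sunitinib and 12% higher under compound 32. Their summed level was 3607 to 3703 CPM with compound 32, 906 to 984 CPM with sunitinib and 2575 to 2577 CPM with DMSO. CLSPN, for instance, changed by -2.24 ± 0.08, MCM4 by -1.90 ± 0.06 and RRM2 by -2.01 ± 0.08 under sunitinib, and CCNE2 by 1.84 ± 0.10, RRM2 by 1.11 ± 0.08 and CDC6 by 0.76 ± 0.07 under compound 32. Of 12 genes of G2 and mitosis 11 fell under each compound (medians -0.92 and -1.10 for sunitinib and compound 32). Over all tested genes 19.9% and 10.3% were called lower. The falls included ANLN (-1.30 ± 0.07) under sunitinib and KIF20A (-1.997 ± 0.085) and PLK1 (-1.99 ± 0.06) under compound 32. Between the compounds these genes split, with 4 higher and 6 lower with compound 32 than with sunitinib (24.1% and 25.2% over all tested genes). Their summed level was 1634 to 1668 CPM with compound 32, 1635 to 1786 CPM with sunitinib and 3146 to 3169 CPM with DMSO. The part of cell cycle phase in the changes of the 10 genes was not tested, and in bulk RNA fewer cells in a phase and less RNA per cell cannot be told apart.

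The genes most like each of the 8 called in any comparison were sought among 10153 protein-coding genes with a mean of at least 5 CPM, by the root mean square difference of log2 levels centred on DMSO over the 6 treated libraries. CDC6, an origin licensing factor, was nearest to CHAF1B (0.0859) and ASF1B (0.105), with DNA2, a nuclease and helicase, next for both (0.0990 and 0.114). BARD1, the partner of BRCA1, was nearest to CHAF1A (0.105) and HELLS (0.141), followed by RAD54B (0.118) and ESCO2 (0.145). NUP188 and TTLL12 were nearest to DNMT1 (0.0587 and 0.0781), CD83 and CA12 to EZH2 (0.0921 and 0.100), and PYURF and ZSCAN26 to ASF1A (0.0884 and 0.0893). For UHRF1 the nearest genes, MCM4 (0.361) and UNG (0.375), lay farther off than those of the other 7. Among the 10 genes themselves HELLS and CHAF1B (0.127) and CHAF1B and ASF1B (0.134) were closest.

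Genes that DNA methylation or PRC2 is known to silence were listed to describe the other end of these pathways at 24 h. None of 22 germline genes passed the count filter, and 7, among them DDX4 and SYCP1, had no count in any library. The summed level of the 22 was 0.452 to 0.895 CPM with compound 32, 0.476 to 0.974 CPM with sunitinib and 0.259 to 0.778 CPM with DMSO, so the ranges overlapped at a level of a few reads a library. Of 20 Polycomb target genes 7 were tested and 6 had no count. Under sunitinib 3 fell and none rose, where 19.9% of all tested genes were called lower and 20.3% higher. The falls included MSX1 (-0.35 ± 0.08, edgeR adjusted p = 0.00557) and PAX6 (-0.38 ± 0.11, adjusted p = 0.0183). Under compound 32 only HOXD13 was called, lower by 0.82 ± 0.18 (adjusted p = 0.00879), with backgrounds of 10.3% lower and 12% higher.

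Each of the 10 genes had at least 223 reads in every library. Exons of 6 overlap those of other genes in GENCODE release 29, and the sources used here do not say whether counting used strand. The largest share was 5.44% of the exon length of ASF1A, with MCM9 on the opposite strand, which was not called under sunitinib (0.11, edgeR adjusted p = 0.498) or compound 32 (-0.04, adjusted p = 0.842). CHAF1B shares 1.74% with MORC3 on its own strand (-0.21, adjusted p = 0.0326 under sunitinib). The other shares were 4.32% for HELLS and at most 1.88% for CHAF1A, ASF1B and DNMT1.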

How the data were processed

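RNA from 9 HEYA8 samples, 3 per treatment, was extracted with TRIzol, enriched for polyadenylated RNA on oligo(dT) beads and reverse transcribed from random hexamers (source: the labels' protocols). The values the authors deposited are raw counts of reads per gene. The submitters' processing notes name fastp, HISAT2 2.0.5, featureCounts, DESeq2 and edgeR without roles, and list a mouse build beside hg38. All 58735 genes had the identifiers and coordinates of GENCODE release 29 (GRCh38). Gene length is another deposited column, as the authors give it.

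Columns were assigned to samples through the names in the sample descriptions. Genes were kept by filterByExpr and scaled by TMM. Group means of all 9 libraries were fitted with edgeR 4.0.16 in R 4.3.3 (glmQLFit, robust, 6 residual degrees of freedom) and compared with glmQLFTest, its quasi-likelihood test. A gene was called where p, adjusted by Benjamini-Hochberg, was under 0.05. The ± after a fold change is a standard error. The test was checked on simulated counts. DESeq2 1.42.0, limma voom (limma 3.58.1), other scalings and filters, fewer libraries and a replicate block were alternatives. Ratios used a pseudocount of 0.5 counts. Replicates differed by more than sampling noise (chi-square over its degrees of freedom, 1.86 or more), so none was counted as a copy. The labels do not say that compound 32 samples are separate cultures, so the spread between samples on which the p-values rest may be technical. In the edgeR test all 9 libraries share 1 estimate of that spread, so this limit applies to every comparison.

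The 10 genes and all lists were chosen with earlier results of these data known. Beyond the 10, genes were named as fixed paralogs and partners, as the 3 called genes with the smallest p in a list, or as the 2 most alike. Marker genes and overlapping genes were named after their values were seen. The main edgeR p-values were adjusted over the 15232 genes, and those of the ratios over the 5 ratios. Promoter sequences are from RefSeq. One gene that the naming rule picked is not reported here.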

Additional observations from a re-analysis of the deposited data

How the results depend on the processing

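Of 540 values of single genes under other scalings, filters, tools, samples, a replicate block or with a library left out, 532 kept their direction where called and their side of the threshold. The other 8 were ASF1A (7) and DNMT3A without sunitinib replicate 3. The 7 falls under sunitinib and the 5 rises under compound 32 were called under all of these at an adjusted p under 0.05. Genes called lower with compound 32 against DMSO numbered 1, and 0 to 1 with a library left out, 0 with a replicate block, 0 at an adjusted p under 0.01 and 0 at 2-fold. That gene is ASF1A. With compound 32 against sunitinib that number was 0 to 2 with a library left out, 0 at 0.01 and 0 at 2-fold. At 2-fold 0 genes were called higher with compound 32 against DMSO.

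Over all genes, 3948 were called under sunitinib at an adjusted p under 0.01 and 1203 at 2-fold, against 6126. Under compound 32 there were 1715 and 480, against 3401, and 6372 with only the 6 libraries compared, without the 3 of sunitinib. With a library left out the range was 2136 to 6548, the highest without sunitinib replicate 3, and 2136 to 2241 without any 1 DMSO or compound 32 library. At 2-fold compound 32 against sunitinib called 2050, against 7498.

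The ratio of DNMT3B to DNMT3A with compound 32 minus DMSO was 0.03, and -0.094 to 0.15 with a library left out (-0.013 without DMSO replicate 3). That of CHAF1B to CHAF1A was 0.06 with sunitinib minus DMSO (-0.035 to 0.12, the lowest without sunitinib replicate 3) and 0.27 with compound 32 (0.23 to 0.33). For UHRF1 to UHRF2 it was -1.65 with sunitinib (-1.74 to -1.53) and -0.02 with compound 32 (-0.037 to 0.0050, the highest without compound 32 replicate 1). The cause of these changes was not tested. No pairing by the numbers in the sample titles was detected. Deviations of same-numbered libraries had correlations of -0.08 to 0.06, and those of differently numbered libraries -0.06 to 0.09. With 3 libraries a group, a weak pairing could be missed. With the replicate block 5758, 2878 and 7174 genes were called for sunitinib and compound 32 against DMSO and for compound 32 against sunitinib. At a few reads a library, differences in the germline genes were not detectable at this depth.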
